A study of Homo sapiens with 12 samples.

Results

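The comparison described here is gambogenic acid (GNA) against its solvent DMSO in the control hairpin line, across all genes with enough counts. It used 6 of the 12 libraries of the series: 3 of shNC cells given DMSO and 3 of shNC cells given 4 µM GNA for 24 h. Members were all genes that passed a count filter in these 6 libraries, which was 14778 of the 61510 genes in the deposited table. The cells were A549/DDP, made resistant to cisplatin from A549, a human lung adenocarcinoma line, and kept in medium with cisplatin, so both groups carry that selection. shNC is the control short hairpin RNA, carried by both groups, and a second line, used below only for tests of a difference, carries a hairpin against NRF2 (shNRF2). GNA is a caged xanthone from gamboge resin. Whether the 3 libraries per group are separate cultures is not in the labels, and p-values therefore rest on a spread that may be technical.

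Cells under stress from misfolded proteins, missing amino acids or oxidants slow general translation by phosphorylating eIF2alpha. This integrated stress response (ISR) favours the transcription factor ATF4, which with C/EBP partners turns on genes for making, importing and charging amino acids. Unfolded cytosolic protein releases the heat shock factor HSF1, and electrophiles release NRF2, which turns on antioxidant and detoxification genes. The series title asks about NRF2, HSF1 and heme oxygenase 1 in the action of GNA.

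Levels are CPM, counts relative to the TMM-scaled library total, given per library or as mean ± SD (n = 3). Changes are log2 fold changes of GNA against DMSO ± SE from edgeR's quasi-likelihood test, and "rose" or "fell" means an adjusted p under 0.05 over all 14778 genes. A549 epithelial genes marked the cells in part: KRT8 stood at 1729 to 1836 FPKM in the DMSO libraries, with KRT18, ALDH1A1 and AKR1B10 also high. The epithelial genes CDH1 and EPCAM were low there, at 4.91 to 5.63 and 1.01 to 1.31 FPKM. KRT19 and the alveolar genes SFTPB, SFTPC, NAPSA and NKX2-1 were at or near 0. Of 15 leukocyte, endothelial, fibroblast and red cell markers 3 passed the filter, and the 3 together held 19.4 to 24.0 CPM in DMSO and 20.3 to 24.3 in GNA. Library totals were 15118635 to 17192671 counts in DMSO and 13599974 to 15896846 in GNA. DMSO replicate 1 was the odd library in its group: counts differed from the other two by a chi-square of 8.09 and 6.34 for each degree of freedom, against 3.75 between those. In the same way GNA replicate 1 differed from the other two by 4.15 and 5.34, against 2.81 between those, and without it 2151 genes were higher and 2357 lower. Leaving out DMSO replicate 1 gave 2307 higher and 2519 lower.

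GNA moved a large part of the transcriptome by small steps. With GNA 2342 genes were higher, 15.8% of those tested, and 2503 were lower, 16.9%, so 32.8% changed. The median rise was 1.39-fold and the median fall 1.28-fold. Larger changes were mostly rises: 312 genes rose and 111 fell at least 2-fold, and 37 rose and 3 fell at least 4-fold. Most of these rises were in genes with low counts. In the lowest of 4 classes of equal size by mean CPM 202 genes rose and 50 fell at least 2-fold. In the highest class 19 rose and 10 fell that far. Genes that rose at least 2-fold had a median of 0.99 CPM in DMSO. In 42.1% of the genes the 3 GNA libraries did not overlap the 3 DMSO libraries. This balance rests on the scaling. The TMM factors were 0.955 to 0.963 in DMSO and 1.02 to 1.03 in GNA, and library totals alone, which moved the median of all genes from 0.015 to 0.11, gave 3524 higher and 1555 lower, 69.4% of calls higher against 48.3%. The limma test on log2(FPKM + 1), whose FPKM are also per library total, gave 3101 higher and 1455 lower, 68.1% higher. In the gene lists below, each count that library totals moved by over 1.5 times went toward more rises or fewer falls.

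Falls were concentrated among abundant genes and were few among noncoding ones, most of which had low counts. With genes split into 4 classes of equal size by mean CPM, in the highest class 37.6% of genes fell and 17.6% rose, while in the lowest class 2.79% fell and 8.82% rose. Counts limit what can be called in the low classes. Of 876 long noncoding RNA genes 150 rose (17.1%, near the 15.8% of all genes) and 30 fell (3.42%, against 16.9%). Of these noncoding genes 542 were in the lowest class and 244 in the second lowest. In the lowest class 9.59% of noncoding and 9.31% of coding genes rose, and 1.29% and 3.28% fell. In the second lowest 25.4% of noncoding genes rose and 5.33% fell, against 16.4% and 8.93% of coding genes. In the third, with 60 noncoding genes, 15% of noncoding and 18.8% of coding genes fell. In the highest, with 30 noncoding genes, 3.33% and 37.8% fell. Among 180 transcribed pseudogenes 52 rose and 6 fell. Genes that rose also had longer models, with a median length implied by the FPKM of 6355 bases against 4831 for genes that fell and 5125 for all, but those that rose at least 2-fold had shorter ones, with a median of 4163. The part of gene length in these calls was not tested.

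**Figure D1:**
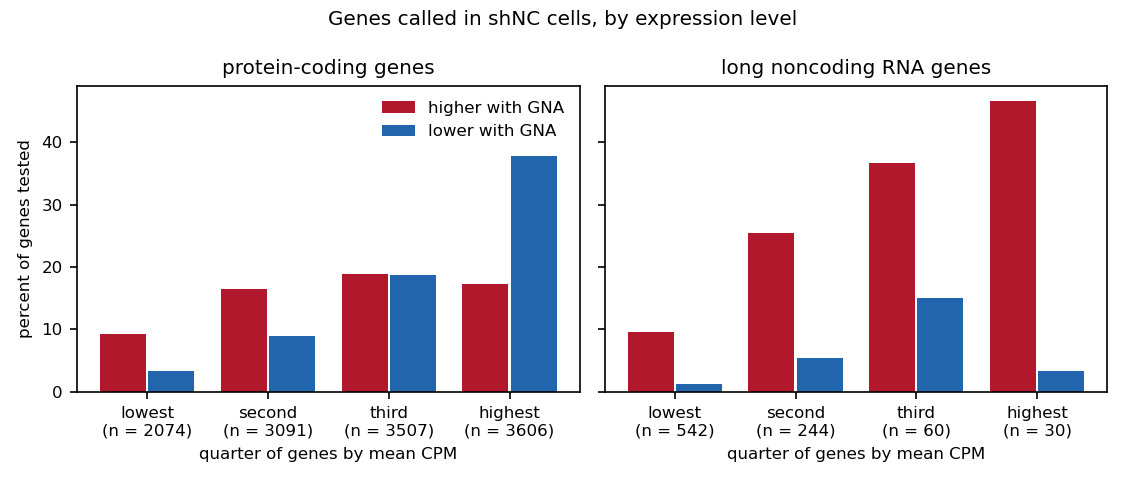
Percent of tested genes called higher (red) or lower (blue) with GNA, by class of mean CPM (4 classes of equal size), for protein-coding genes on the left and long noncoding RNA genes on the right, with the number of genes under each class. Coding genes fell most often in the highest class (37.8%), while noncoding genes rose more often than they fell in every class.

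The regulators of the ISR rose together, in a list that also holds CHAC1, the gene of an enzyme that cleaves glutathione. Of 14 tested genes, 11 rose and 0 fell, with a median change of 0.77 against 0.015 over all genes; 1 fell without DMSO replicate 1 or GNA replicate 1. NUPR1, a small stress-induced chromatin protein, stood at 16.6, 16.2 and 17.3 CPM in the DMSO libraries and 78.8, 80.9 and 75.5 CPM in the GNA libraries. DDIT3, which encodes the transcription factor CHOP, stood at 11.2, 11.0 and 13.6 CPM in the DMSO libraries and 52.2, 47.6 and 49.1 CPM in the GNA libraries. In both genes every GNA library was far above every DMSO library, with changes of 2.23 ± 0.070 and 2.05 ± 0.084 log2 units (edgeR adjusted p = 1.5e-18 and 6.5e-16). TRIB3, a pseudokinase that restrains ATF4 and CHOP, rose by 1.49 ± 0.10 and ATF3 by 1.00 ± 0.058 log2 units. ATF4 itself, controlled largely through translation, moved little, by 0.25 ± 0.042 log2 units, from 322, 340.0 and 336 to 399, 393 and 396 CPM. Among the eIF2alpha kinases and eIF2 and eIF2B subunits, which act upstream, 1 of 12 rose, none without DMSO replicate 1 or GNA replicate 1 or 2. In that list 4 fell, 2 without DMSO replicate 2 and 1 with library totals, led by EIF2S1, the gene of eIF2alpha itself (-0.38 ± 0.056 log2 units).

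Enzymes that make serine, cysteine, proline and asparagine were higher as a group. Of 19 tested genes, 14 rose and 3 fell (median 0.73; 1 fell with library totals). PCK2, the mitochondrial PEP carboxykinase, rose from 9.29 ± 0.60 to 40.0 ± 2.4 CPM (2.11 ± 0.098 log2 units). PHGDH and PSAT1, which catalyse the first and second steps of serine synthesis, rose from 54.7 ± 4.4 to 124 ± 4.1 CPM and from 66.7 ± 1.3 to 157 ± 5.4 CPM. CBS, the first enzyme of transsulfuration, rose by 1.30 ± 0.26 log2 units. Transporters followed: of 20 tested 11 rose and 2 fell, or 1 without any single library other than DMSO replicate 1 and 0 with library totals. SLC3A2 and SLC7A5, the 2 chains of the LAT1 exchanger of large neutral amino acids, rose by 0.91 ± 0.052 and 1.04 ± 0.15, and the serine and alanine carrier SLC1A4 by 1.49 ± 0.16 log2 units. SLC7A5 was uneven between GNA libraries, at 167, 139 and 167 CPM in the DMSO libraries and 209, 473 and 289 CPM in the GNA libraries.

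Folate enzymes divided largely by compartment. Of 14 tested genes, 5 rose and 6 fell (median 0.013). The 4 largest rises were enzymes of the mitochondrial arm: ALDH1L2 from 37.9 ± 1.5 to 141 ± 4.7 CPM (1.89 ± 0.057), MTHFD2 (0.81 ± 0.061), SHMT2 (0.44 ± 0.081) and MTHFD1L (0.28 ± 0.066 log2 units). The falls included TYMS, which makes thymidylate, and MTHFD1, the cytosolic counterpart of MTHFD2 and MTHFD1L. They changed by -0.52 ± 0.068 and -0.50 ± 0.045 log2 units. MTHFD1 stood at 233, 231 and 239 CPM in the DMSO libraries and 163, 161 and 172 CPM in the GNA libraries, with no overlap between the groups. The division was not complete: cytosolic MTR, which makes methionine, rose by 0.15 ± 0.057, and GCSH, of the mitochondrial glycine cleavage system, fell by 0.48 on the log2 scale, a call lost with library totals or without DMSO replicate 2 or 3 or GNA replicate 1 or 3.

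The genes that charge transfer RNA in the cytosol divided too. Each cytosolic tRNA synthetase joins 1 or more amino acids to the matching tRNA. Of 20 tested genes, 11 rose and 5 fell (median 0.30), and with library totals 3 fell. GARS1, for glycine, stood at 188, 195 and 201 CPM in the DMSO libraries and 358, 359 and 346 CPM in the GNA libraries and rose by 0.87 ± 0.045 log2 units. IARS1, CARS1 and EPRS1, for isoleucine, cysteine, and glutamate with proline, rose by 0.75 ± 0.046, 0.74 ± 0.048 and 0.72 ± 0.043 log2 units. KARS1, for lysine, stood at 161, 173 and 174 CPM in the DMSO libraries and 132, 129 and 127 CPM in the GNA libraries and fell by 0.39 log2 units. RARS1, for arginine, and FARSA, a subunit of the phenylalanine enzyme, changed by -0.31 ± 0.057 and -0.35 ± 0.068 log2 units. Of the 16 mitochondrial synthetases tested 1 rose and 2 fell (median -0.16), 1 without DMSO replicate 3 and 0 with library totals.

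**Figure D2:**
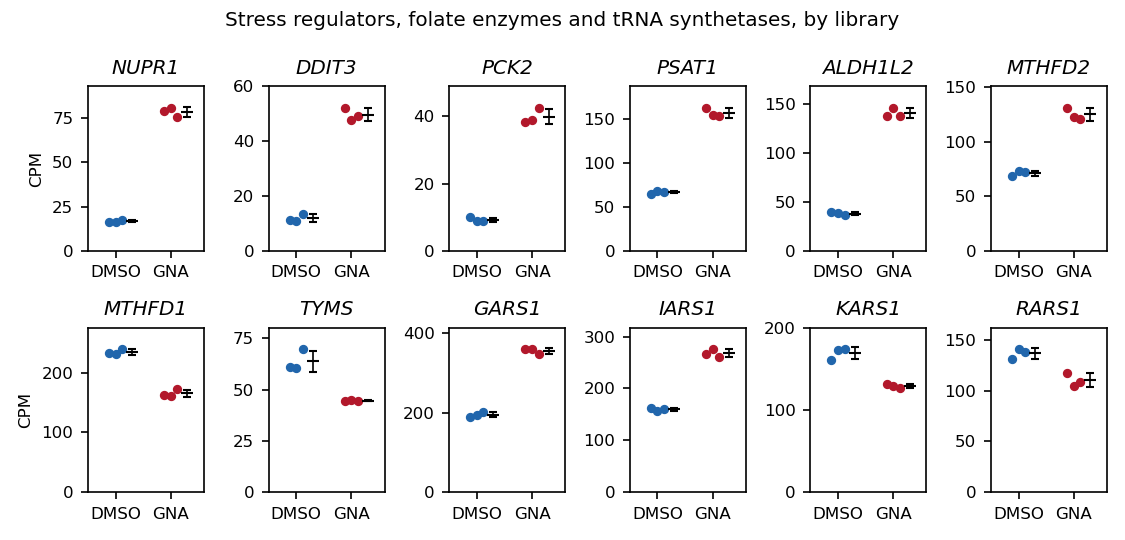
CPM in each of the 6 libraries for 12 genes named in the text (blue points DMSO, red points GNA, black bars mean ± SD of 3 libraries, linear axes from 0). NUPR1, DDIT3, PCK2, PSAT1, ALDH1L2, MTHFD2, GARS1 and IARS1 are higher with GNA and MTHFD1, TYMS, KARS1 and RARS1 lower, without overlap in any of the 12.

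Promoters of these genes were searched because the synthetases that rose and fell share a function and could be compared by sequence. The window was 250 bases before to 50 after the start in RefSeq (GRCh38.p14), and 10806 of the tested genes had one. The letters TGATGNAA, the core of the C/EBP-ATF response element that ATF4 binds with C/EBP partners, were sought on both strands. They occurred in 1.78% of promoters of tested genes and in 3.67% of all 27305 promoters in the table. Of all genes that rose 2.63% held them, and of all that fell 1.70%. At changes of at least 2-fold the letters were in 9 of 193 promoters of genes that rose (4.66%). They were in 3 of 69 of genes that fell that far (4.35%), so the shares were alike. Among cytosolic synthetases they occurred in 5 of 9 promoters of genes that rose (AARS1, CARS1, IARS1, MARS1 and NARS1) and in 0 of 5 of genes that fell. TARS1, which was not called, held it as well, and GARS1 and EPRS1 rose without it. In the other lists it occurred in 3 of 9 promoters of amino acid synthesis enzymes that rose (ASNS, GOT1 and BCAT1) and 0 of 2 that fell. In the ISR regulator list it was in 2 of 10 that rose, ATF3 and the enzyme gene CHAC1, and in 1 of 3 that were not called, PPP1R15B. Among transporters it was in 3 of 10 that rose, 0 of 1 that fell and 1 of 6 that were not called, SLC1A3. It was in 1 of 3 promoters of folate enzymes that rose, MTHFD1L, against 0 of 5 that fell. AARS1, MARS1, NARS1, TARS1, ASNS, GOT1, BCAT1, PPP1R15B and SLC1A3 are named only because their promoters hold the letters. A match is only these letters in this window. The examples printed, with the match on either strand in capitals, are the 120 bases before IARS1 (chr9:92293698-92293817, minus strand) and the 250 before MTHFD1L (chr6:150866236-150866485, plus strand).
IARS1: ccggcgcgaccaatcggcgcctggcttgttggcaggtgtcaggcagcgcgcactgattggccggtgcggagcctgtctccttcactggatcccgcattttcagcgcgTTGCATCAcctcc
MTHFD1L: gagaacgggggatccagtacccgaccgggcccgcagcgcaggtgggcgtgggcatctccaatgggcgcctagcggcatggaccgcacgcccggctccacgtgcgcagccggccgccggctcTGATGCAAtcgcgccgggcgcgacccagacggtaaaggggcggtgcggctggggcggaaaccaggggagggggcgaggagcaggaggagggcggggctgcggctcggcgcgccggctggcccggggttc

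**Figure D3:**
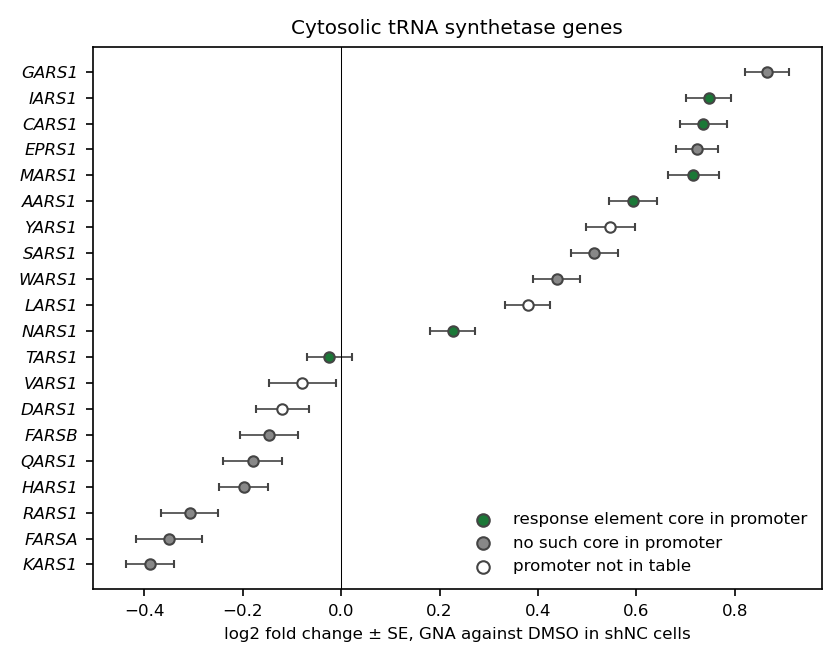
Log2 fold change ± SE (edgeR) of each of the 20 cytosolic tRNA synthetase genes, ordered by change, with green points where the promoter holds the response element core, grey where it does not and white where the promoter table has no entry. Green points lie among the risers, with TARS1 near 0, and grey points fill the lower end.

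Genes that hold back the growth kinase mTORC1 rose in 7 of 15 cases and fell in 1, CASTOR2, a call lost with library totals or without DMSO replicate 3 or GNA replicate 2; 2 fell without DMSO replicate 1. NIBAN1, a stress-induced regulator of translation, had one of the largest changes of any abundant gene, from 41.3 ± 3.5 to 232 ± 8.1 CPM (2.49 ± 0.061 log2 units). The leucine sensor SESN2 rose by 1.24 ± 0.073, EIF4EBP1, the repressor of cap-dependent translation, by 0.95 ± 0.064, and DDIT4 by 0.54 ± 0.056 log2 units. Among secreted stress factors the paralogs STC2 and STC1, both stanniocalcin glycoprotein hormones, moved apart: STC2 stood at 51.9, 44.1 and 56.4 CPM in the DMSO libraries and 167, 175 and 183 CPM in the GNA libraries, and STC1 at 13.7, 11.2 and 11.3 CPM in the DMSO libraries and 6.18, 4.44 and 5.88 CPM in the GNA libraries. Their changes were 1.79 ± 0.068 and -1.13 ± 0.14 log2 units. VEGFA, the vascular growth factor, rose by 0.74 ± 0.052, and GDF15 only by 0.26 ± 0.081 log2 units, a call lost without GNA replicate 1 or 3 or with no count filter.

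HSP70 genes rose more often than they fell, led by the inducible forms. Of 16 tested genes, 9 rose and 3 fell (median 0.22). HSPA6, which is silent in most unstressed cells, stood at 0.275, 0.183 and 0.0657 CPM in the DMSO libraries and 60.3, 65.0 and 66.4 CPM in the GNA libraries, too few in DMSO for a fold. HSPA1A and HSPA1B, near-identical copies whose reads cannot be fully told apart, stood at 117, 111 and 109 CPM in the DMSO libraries and 462, 505 and 547 CPM in the GNA libraries, and at 12.5, 12.7 and 14.0 CPM in the DMSO libraries and 50.2, 57.3 and 62.6 CPM in the GNA libraries. Against these, the constitutive HSP70 gene HSPA8 changed by -0.0039 ± 0.041 (edgeR adjusted p = 0.96), and HSPA2, HSPA14 and the HSP110 gene HSPA4 fell by 0.84, 0.76 and 0.33 log2 units. In the small heat shock and BAG list 5 of 9 tested genes rose and 0 fell (1 without DMSO replicate 1 or 2), led by CRYAB (1.38, 1.22 and 1.64 to 10.5, 10.5 and 12.9 CPM), HSPB8 (1.40 ± 0.17) and BAG3 (0.60 ± 0.059 log2 units). HSPB8 and BAG3 act together on aggregated protein. The letters GAANNTTC, paired half-sites of the heat shock element that HSF1 binds, were in 3 of 9 promoters of HSP70 genes that rose (HSPA1A, HSPA1B and HSPA6). They were also in 2 of 3 that were not called (HSPA1L and HSPA8), in 0 of 2 that fell and in 4.71% of promoters of all tested genes. The reverse pairing, TTCNNGAA, was in 2 of 9 that rose (HSPA6 and HSPA9), 1 of 3 not called (HSPA8), 0 of 2 that fell and 5.93% of all. HSPA1L, HSPA8 and HSPA9 are named here for the match. The 120 bases before HSPA1A (chr6:31815423-31815542, plus strand) show GAANNTTC in capitals.
HSPA1A: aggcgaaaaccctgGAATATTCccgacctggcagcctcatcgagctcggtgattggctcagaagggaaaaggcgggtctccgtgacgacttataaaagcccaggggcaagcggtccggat

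Chaperonin genes were lower, and HSP90 genes and co-chaperones went both ways. Of the 11 chaperonin genes, most of them subunits of the CCT ring that folds actin and tubulin, 0 rose and 8 fell (median -0.27), and together they held 4842 to 5135 CPM in DMSO and 4038 to 4339 in GNA. CCT8, CCT2 and CCT7 changed by -0.45 ± 0.053, -0.44 ± 0.055 and -0.43 ± 0.041 log2 units. HSP90 genes and co-chaperones fell in 11 of 21 cases and rose in 3, and with library totals 6 fell. Their summed level, 23055 to 24034 CPM in DMSO and 24621 to 25611 in GNA, was higher without overlap, and HSP90AA1 holds the largest part of it. The inducible HSP90AA1 rose by 0.37 ± 0.049, as did STUB1, a ubiquitin ligase that works with chaperones (0.68 ± 0.10), while the mitochondrial TRAP1 fell by 0.38 log2 units. In the endoplasmic reticulum (ER) 9 of 22 chaperones and folding enzymes fell and 3 rose (5 with library totals). The share that fell, 40.9%, was near the 37.6% of all genes that fell in the highest class by mean CPM. MANF, a secreted ER stress protein, stood at 110.3, 115 and 116 CPM in the DMSO libraries and 68.5, 62.3 and 66.6 CPM in the GNA libraries, and fell by 0.79 log2 units; SDF2L1 and CALR fell by 0.71 and 0.57 log2 units. HSPA5, the gene of BiP, rose slightly (0.23 ± 0.051 log2 units). Genes for disposing of ER proteins and their sensors leaned the other way, with 9 of 20 higher and 1 lower (0 with library totals), led by the sensor ERN1, which encodes IRE1 (0.91 ± 0.12), and the ligase gene SYVN1 (0.48 ± 0.13 log2 units, lost without DMSO replicate 3).

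Degradation genes rose in part. Among ubiquitin genes the polyubiquitin gene UBB rose from 376 ± 8.2 to 521 ± 17.5 CPM, while the fusion gene RPS27A was lower at -0.24 ± 0.081 log2 units. That call was lost with library totals, by DESeq2, by limma on FPKM or without DMSO replicate 2 or GNA replicate 2 or 3. Lysosome genes rose in 13 of 26 cases and fell in 5 (median 0.23); with library totals 3 fell. The protease gene CTSD rose from 11.0 ± 0.88 to 19.8 ± 0.26 CPM, and TPP1 and the cholesterol exporter NPC1 by 0.83 ± 0.11 and 0.65 ± 0.10 log2 units. CTSB, the most abundant of the list's fallers, changed by -0.31 ± 0.045 log2 units. In the autophagy list 8 of 32 rose and 3 fell; 5 rose without DMSO replicate 3, and 1 fell with library totals. The starting kinase ULK1, the membrane marker MAP1LC3B and the cargo receptor SQSTM1 rose by 0.61 ± 0.085, 0.60 ± 0.084 and 0.58 ± 0.045 log2 units. Among 17 V-ATPase genes, for the pump that acidifies lysosomes, ATP6V0A1 and ATP6V0A2 were the 2 that rose (0.83 ± 0.077 and 1.08 ± 0.11 log2 units) and 3 fell, 1 without GNA replicate 3 or with library totals. The V-ATPase shares, 11.8% higher and 17.6% lower, were near the 15.8% and 16.9% of all genes.

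Enzymes that clear oxidants and carbonyls were lower, in cells where several are among the most abundant transcripts. Of 28 quinone, carbonyl and conjugating enzymes 14 fell and 3 rose (5 with library totals), and their summed level went from 35669.5 to 37502 CPM in DMSO to 28708 to 29831 in GNA. AKR1B1, aldose reductase, stood at 1948, 2129.9 and 2082 CPM in the DMSO libraries and 1197, 1104 and 1116 CPM in the GNA libraries, and fell by 0.85 log2 units. AKR1B10 and UGDH changed by -0.40 ± 0.043 and -0.53 ± 0.044, and AKR1C1, one of several near-identical copies, by -0.56 ± 0.049 log2 units. CYP4F11 was the largest rise of the list (0.68 ± 0.075 log2 units). In the thioredoxin list 6 of 11 fell, PRDX1 by 0.56 and TXN by 0.39 log2 units (the latter not by limma on FPKM), and 2 rose, 1 without DMSO replicate 1 or GNA replicate 1 or 2; with library totals 3 fell. SRXN1, which repairs peroxiredoxins, rose but unevenly, at 3.23, 4.27 and 2.23 CPM in the DMSO libraries and 6.40, 22.6 and 14.5 CPM in the GNA libraries. Glutathione and cystine genes went both ways, with 7 of 19 higher and 5 lower (3 without DMSO replicate 2 or GNA replicate 2 or 3). SLC7A11, the cystine importer, stood at 167, 163 and 158 CPM in the DMSO libraries and 237, 231 and 237 CPM in the GNA libraries and rose by 0.53 ± 0.047, while the peroxidase GPX2 fell by 0.58 log2 units. The paralogs CHAC1 and CHAC2, which cleave glutathione, moved apart: CHAC1, named here for its size although it is below 5 CPM, rose from 0.459 ± 0.31 to 4.15 ± 0.47 CPM (3.17 ± 0.32), and CHAC2 fell by 0.75 log2 units. The pentose phosphate enzymes TKT and PGD changed by -0.62 ± 0.043 and -0.30 ± 0.041, while IDH1 and ME1, which make NADPH, rose by 0.34 ± 0.055 and 0.31 ± 0.055 log2 units.

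HMOX1, of the heme list, rose in a list where few genes were called. Of 18 heme genes 3 rose (16.7%) and 2 fell (11.1%), near or below the shares of all genes, 15.8% and 16.9%. HMOX1, which opens the heme ring, stood at 36.1, 43.0 and 42.1 CPM in the DMSO libraries and 133, 142 and 151 CPM in the GNA libraries, and rose by 1.81 ± 0.073 log2 units (edgeR adjusted p = 5.1e-16). SLC48A1, which carries heme out of lysosomes, and BLVRB, which reduces biliverdin, rose by 0.85 ± 0.099 and 0.47 ± 0.065, and the constitutive HMOX2 and BLVRA changed by -0.33 ± 0.051 and -0.28 ± 0.064 log2 units. No synthesis enzyme tested was called. Iron handling genes went both ways, with 5 higher and 5 lower of 17 (median -0.083). The count of falls was 1 with library totals, 3 without DMSO replicate 2 and 2 without DMSO replicate 3 or GNA replicate 1 or 2. The iron exporter SLC40A1 rose by 0.48 ± 0.10 and the ferritin genes FTH1 and FTL, which have many copies in the genome, by 0.42 ± 0.069 and 0.24 ± 0.055 log2 units. The fallers included the metal importer SLC39A8 (-0.60 ± 0.060), the transferrin receptor TFRC (-0.17 ± 0.060) and the reductases STEAP3 and STEAP2 (-0.21 ± 0.072 and -0.21 ± 0.080 log2 units). NFE2L2, the gene of NRF2, and HSF1 changed by 0.17 ± 0.061 and 0.28 ± 0.10 log2 units (edgeR adjusted p = 0.034 and 0.042). The first call was lost without DMSO replicate 2 or 3 or GNA replicate 1 or 3 and the second without DMSO replicate 1 or 2 or GNA replicate 2 or 3. KEAP1, the NRF2 inhibitor, changed by -0.18 ± 0.085 log2 units without a call (edgeR adjusted p = 0.12).

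Genes that handle metals and drugs, most of them for export, rose in 9 of 17 cases and fell in 0 (median 0.19). ABCB1, the efflux pump P-glycoprotein, stood at 23.3, 17.2 and 21.1 CPM in the DMSO libraries and 31.9, 33.6 and 27.4 CPM in the GNA libraries (0.60 ± 0.099 log2 units). ABCC3, the most abundant of those named, rose from 375 ± 43.9 to 513 ± 16.9 CPM. SLC31A1, a copper importer that also carries cisplatin, rose by 0.42 ± 0.081, and the copper exporter ATP7B by 0.47 ± 0.15 log2 units, a call lost without DMSO replicate 2 or GNA replicate 2. In the ABC family as a whole 14 of 32 rose and 4 fell. ABCE1 and ABCF1, family members that work on ribosomes and carry nothing, were among the fallers (-0.43 ± 0.058 and -0.28 ± 0.044 log2 units).

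Genes of origin licensing, replication and mitosis fell. Licensing and helicase genes, which set replication origins, fell in 21 of 23 cases (median -0.76), replication fork enzymes in 23 of 29 (-0.50) and nucleotide supply enzymes in 16 of 25 (-0.42). None of these rose. Of the next lists none rose either, apart from 1 mitotic gene (without DMSO replicate 1, with library totals, with no count filter or with the replicate block) and 1 cohesin or condensin gene (without GNA replicate 1, with upper-quartile factors, with library totals or by limma on FPKM). Mitotic kinases, cyclins and checkpoint genes fell in 24 of 28 cases (-0.87), kinetochore and centromere genes in 24 of 28 (-0.78) and condensin and cohesin genes in 18 of 23 (-0.41). Summed kinetochore genes held 1673 to 1687 CPM in DMSO and 891 to 963 in GNA. In bulk RNA, fewer cycling cells and less of these messages in each cell cannot be told apart.

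PLK1, the kinase that drives mitotic entry and exit, stood at 39.8, 42.3 and 45.6 CPM in the DMSO libraries and 17.6, 19.2 and 18.5 CPM in the GNA libraries and fell by 1.21 log2 units. GINS2, of the replicative helicase, fell from 8.87 ± 0.95 to 3.86 ± 0.54 CPM, FEN1, which processes Okazaki fragments, from 66.9 ± 1.6 to 31.5 ± 1.2 CPM, and RRM2, of ribonucleotide reductase, from 90.8 ± 1.8 to 44.2 ± 5.8 CPM. Among G1 genes 9 of 14 fell, CCNE2 by 1.20, and the 1 that rose was the inhibitor CDKN1A (0.20 ± 0.052 log2 units). Repair genes of the kind that act on cisplatin crosslinks fell in 18 of 32 cases, with the nuclease gene EXO1 at -0.96 ± 0.10, and ERCC4, which encodes the XPF nuclease, was the 1 that rose (0.42 ± 0.11 log2 units; 2 rose without DMSO replicate 1 and 3 with library totals). Kinesins fell in 17 of 34 and rose in 8. The fallers with the largest changes were the mitotic motors KIF20A, KIFC1, KIF18B and KIF20B (-1.36 to -1.03), and the largest risers with at least 5 CPM in the higher group, KIF7 and KIF27 (0.82 ± 0.12 and 0.56 ± 0.10 log2 units), are known from hedgehog signalling and cilia. Histone genes fell in 12 of 28 and rose in 1, none without DMSO replicate 1. H2AX, which marks DNA breaks, and H2AZ1, a replacement histone, changed by -0.81 ± 0.096 and -0.74 ± 0.088 log2 units.

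Promoters of these genes were searched for the elements of the regulators of mitotic and of replication genes. The cell cycle homology region, TTTGAA on either strand, which cell cycle repressor and B-MYB complexes use, was in 9.83% of promoters of tested genes and in 26 of 69 promoters of genes that fell at least 2-fold (37.7%). Among fallers it was in 9 of 18 promoters of the mitotic list and 11 of 19 of the kinetochore list, but in 1 of 18 of the licensing list and 0 of 20 of the fork list. Among genes not called it was in 1 of 3 of the mitotic list, 1 of 3 of the kinetochore list, 0 of 2 of the licensing list and 0 of 6 of the fork list. The E2F letters TTCCCGCC were in 5.05% of promoters of tested genes, in 4 of 18 of licensing fallers and in 6 of 20 of fork fallers. In these 2 lists they were in 0 of 2 and 1 of 6 promoters of genes not called. Called or not, 4 of 22 promoters of the kinetochore list and 1 of 21 of the mitotic list held the E2F letters. Among genes that fell at least 2-fold they were in 3 of 69 promoters (4.35%). The 120 bases before PLK1 (chr16:23678769-23678888) and CDC20 (chr1:43358861-43358980), both plus strand, are shown with TTTGAA in capitals, and those before PCNA, the sliding clamp of the fork (chr20:5126623-5126742, minus strand), with the E2F letters, read on the opposite strand, in capitals.
PLK1: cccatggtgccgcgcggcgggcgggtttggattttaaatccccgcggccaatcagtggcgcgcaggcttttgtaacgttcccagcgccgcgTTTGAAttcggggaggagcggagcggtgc
CDC20: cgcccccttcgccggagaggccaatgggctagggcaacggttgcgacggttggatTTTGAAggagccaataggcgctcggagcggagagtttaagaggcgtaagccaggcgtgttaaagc
PCNA: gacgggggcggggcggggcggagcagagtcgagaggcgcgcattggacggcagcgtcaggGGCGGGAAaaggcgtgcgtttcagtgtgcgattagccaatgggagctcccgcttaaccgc

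Targets of p53 rose in 12 of 26 cases and fell in 1; 7 rose without GNA replicate 3 and 2 fell without GNA replicate 1. SESN2 is among them and GADD45A, which acts in growth arrest, rose by 0.70 ± 0.056, while TIGAR, a sugar phosphatase, changed by -0.49 ± 0.10 log2 units. Death genes moved in both directions. Of 15 BCL2 family genes 3 rose (20%, near the 15.8% of all genes, and 5 genes with library totals). In that family 4 fell (26.7%, against 16.9% of all genes). The pro-death BID and BAD fell by 0.41 and 0.40, and BCL2L2, which protects cells, rose by 0.38 ± 0.074 log2 units. TRADD, the adaptor of TNF receptor 1, rose by 1.01 ± 0.19 and the receptor gene TNFRSF1A changed by -0.37 ± 0.063 log2 units.

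Genes of growth and energy were broadly lower by small amounts. Ribosome biogenesis genes fell in 26 of 37 cases and rose in 1 (median -0.27); 17 fell with library totals and none rose without GNA replicate 2. NCL, nucleolin, stood at 9291, 9379 and 9656 CPM in the DMSO libraries and 7115, 6815 and 6709 CPM in the GNA libraries, and fell by 0.46 log2 units. MYC, which drives this program, stood at 69.9, 67.9 and 76.3 CPM in the DMSO libraries and 52.2, 59.3 and 62.0 CPM in the GNA libraries and changed by -0.30 ± 0.068 log2 units. Cytosolic ribosomal protein genes were less firm: 35 of 82 fell, but 15 to 58 did when single libraries were left out (15 without DMSO replicate 2 or GNA replicate 3, 20 without GNA replicate 2, 53 without DMSO replicate 1 and 58 without GNA replicate 1) and 9 with library totals. Their summed level overlapped between the groups, at 40181 to 46875 CPM in DMSO and 36759.6 to 43182 in GNA. The share that fell, 42.7%, was near the 37.6% of all genes that fell in the highest class by mean CPM.

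Nuclear genes of the mitochondrion were lower too. Mitochondrial ribosomal protein genes fell in 43 of 74 cases and rose in 1 (median -0.26), with 26 lower and 3 higher under library totals and 2 higher without DMSO replicate 2, and with MRPL14 at -0.79 ± 0.12 log2 units. Along the respiratory chain 20 of 45 complex I genes fell, 8 of 15 of cytochrome bc1, 11 of 19 of cytochrome oxidase and 12 of 18 of ATP synthase, with medians of -0.24, -0.40, -0.33 and -0.44. NDUFS5, COX7B and ATP5MC3 changed by -0.66 ± 0.063, -0.72 ± 0.063 and -0.70 ± 0.090 log2 units. Summed ATP synthase genes held 1781 to 2059 CPM in DMSO and 1359.6 to 1528 in GNA. Among these lists only that of complex I, taken by the NDUF name, held rises, in 3 cases (with library totals also 1 cytochrome oxidase gene). They were led by NDUFA4L2, a low-level gene that is in the list by name only and is not counted here as a complex I subunit. It rose from 1.79, 0.731 and 0.591 to 4.38, 5.61 and 5.64 CPM. Import genes fell in 10 of 25 cases, and citrate cycle enzymes in 13 of 21 (7 by limma on FPKM), SUCLA2 by 0.51 log2 units. The complex I and import shares, 44.4% and 40%, were near the 37.6% of all genes that fell in the highest class by mean CPM. Of the 13 messages made inside the mitochondrion 10 fell (5 by limma on FPKM), with a median of -0.33, or -0.23 without DMSO replicate 1, and MT-ND3 fell by 0.59 log2 units. As a share of raw library totals the 13 messages held 5.98, 4.71 and 4.95% in DMSO and 4.46, 4.73 and 4.83% in GNA. On that measure DMSO replicate 1 was the high library and the others overlapped. On TMM-scaled CPM the 13 messages held 49294 to 62206.5 in DMSO and 43558 to 47063 in GNA, without overlap.

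Glycolysis genes fell in 14 of 24 cases and rose in 1 (9 fell and 4 rose with library totals, 8 and 3 by limma on FPKM). LDHA, which turns pyruvate into lactate, stood at 1406, 1536 and 1522 CPM in the DMSO libraries and 874, 843 and 836 CPM in the GNA libraries, and PGAM1 and TPI1 changed by -0.61 ± 0.056 and -0.54 ± 0.055 log2 units. The 1 rise was the glucose carrier SLC2A1 (0.19 ± 0.064 log2 units), lost when DMSO replicate 1 or 2 or GNA replicate 3 was left out. Hypoxia-response genes went both ways, 6 higher and 6 lower of 17: NDRG1 and P4HA2 rose by 0.84 ± 0.077 and 0.79 ± 0.067 and HIF1A itself changed by -0.46 ± 0.046 log2 units. Cholesterol synthesis genes fell in 8 of 25 cases (5 by limma on FPKM) and none rose. EBP, a late isomerase of that pathway, stood at 25.1, 25.2 and 27.3 CPM in the DMSO libraries and 14.7, 12.1 and 13.8 CPM in the GNA libraries and fell by 0.94 log2 units.

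RNA processing genes fell as well. SR and hnRNP splicing factors fell in 20 of 33 cases and in 1 they rose, 0 without DMSO replicate 1, 2 or 3 or GNA replicate 2 or 3 and 2 without GNA replicate 1. They held 19059.8 to 19144 CPM in DMSO against 14481 to 14944 in GNA. HNRNPA2B1 stood at 3345, 3329 and 3322 CPM in the DMSO libraries and 2294, 2188 and 2224 CPM in the GNA libraries, and SRSF7 and SRSF3 changed by -0.65 ± 0.054 and -0.55 ± 0.051 log2 units. Nucleoporins fell in 11 of 22 (7 by limma on FPKM), RNA polymerase II subunits in 6 of 14 and initiation factors in 19 of 47 (10 with library totals). The polymerase and initiation factor shares, 42.9% and 40.4%, were near the 37.6% of all genes that fell in the highest class by mean CPM. EIF5B and EIF5A changed by -0.54 ± 0.054 and -0.44 ± 0.048 log2 units.

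**Figure D4:**
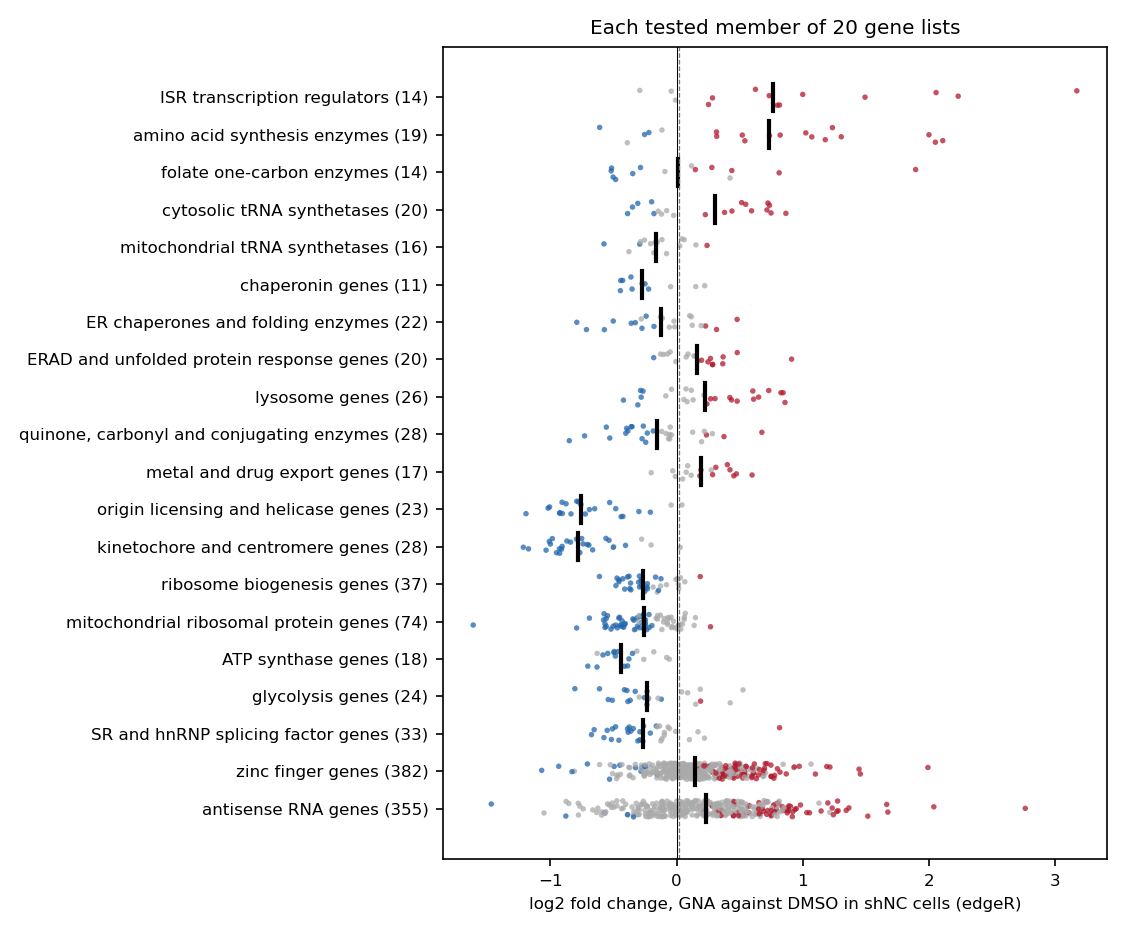
Each point is the log2 fold change (edgeR) of 1 tested member of a gene list, red where called higher, blue where called lower and grey where not called, with the median as a black bar and the number of members in brackets; the dashed line is the median of all genes, 0.015. Licensing and kinetochore genes lie almost wholly below 0, ISR regulators mostly above 0, and folate enzymes and tRNA synthetases on both sides.

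Several large families rose more often than they fell. Zinc finger genes, mainly repressors with KRAB domains, rose in 73 of 382 cases (19.1%, near the 15.8% of all genes) and fell in 13 (3.40%, 8 genes without DMSO replicate 2). Library totals gave 119 and 7. ZNF469 rose from 2.45 ± 0.59 to 9.73 ± 1.7 CPM and ZNF367, a cell cycle gene, fell from 14.2 ± 0.48 to 6.75 ± 0.40 CPM. Solute carriers rose in 52 of 230 and fell in 19, 11 without GNA replicate 3; among those with at least 5 CPM in the higher group the zinc importers SLC39A10 and SLC39A8 had the largest falls (-0.96 ± 0.067 and -0.60 ± 0.060 log2 units). Hosts of small nucleolar RNAs rose in 9 of 24 cases, SNHG32 by 1.03 ± 0.11 and GAS5, whose transcripts are lost by decay when they are translated, by 0.91 ± 0.057 log2 units. GAS5 stood at 84.9, 84.2 and 79.0 CPM in the DMSO libraries and 170.2, 148 and 147 CPM in the GNA libraries. Of 14 long noncoding RNAs linked to stress, GAS5 and ZFAS1 among them, 10 rose and 0 fell (1 without DMSO replicate 1), with the nuclear RNAs MEG3 and MALAT1 at 1.07 ± 0.13 and 0.55 ± 0.090 log2 units.

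Antisense RNA genes rose in 63 of 355 cases (17.7%, near the 15.8% of all genes) and fell in 5 (1.41%, against 16.9%), 2 without DMSO replicate 2 or with library totals and 3 without GNA replicate 2. Together the 355 held 1645 to 1821 CPM in DMSO, so most were low. Among all genes 2.79% fell in the lowest class by mean CPM and 8.83% in the second lowest. Their few falls therefore cannot be read as particular to antisense genes. The median change of the antisense genes was 0.24. CCDC18-AS1 stood at 8.25, 6.64 and 6.04 CPM in the DMSO libraries and 18.9, 16.1 and 15.5 CPM in the GNA libraries and rose by 1.27 ± 0.14, and BCAN-AS1 rose by 0.98 ± 0.12 log2 units. Whether the counting used strand is not given in the sources used here, so reads of these genes cannot be told from those of their partners. Intergenic noncoding (LINC) genes rose in 32 of 196 cases, a share of 16.3% near that of all genes, and in 21 without DMSO replicate 2 or 3 or GNA replicate 3.

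The cytoskeleton shifted downward with exceptions. Actomyosin genes fell in 15 of 23 cases and rose in 5 (9 fell with library totals). ACTB, TPM2 and MYL6 changed by -0.35 ± 0.044, -0.42 ± 0.042 and -0.39 ± 0.065, while the nonmuscle myosin MYH14 stood at 21.7, 21.0 and 21.9 CPM in the DMSO libraries and 50.7, 56.5 and 56.2 CPM in the GNA libraries and rose by 1.34 ± 0.096 log2 units. KRT8 and KRT18, the paired keratins of simple epithelium, changed by -0.71 ± 0.041 and -0.65 ± 0.044, and KRT17 rose by 0.71 ± 0.12 log2 units. In the alveolar and lung epithelial list 3 of 9 tested genes rose and 1 fell. The airway mucin genes MUC5AC and MUC5B rose, from 301 ± 21.0 to 559 ± 46.6 CPM and by 0.36 ± 0.090, and LPCAT1, a lipid enzyme of surfactant synthesis, fell by 0.50 log2 units. Collagen genes rose in 10 of 25 cases and fell in 2, with 6 higher without DMSO replicate 2. COL6A2 rose from 3.50 ± 0.19 to 8.19 ± 2.0 CPM and COL5A2, the more abundant of the fallers, fell by 0.51 log2 units.

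Signalling targets went in mixed directions. In the NF-kB feedback and chemokine list 9 of 24 fell and 2 rose, or 1 without any single library other than DMSO replicate 1, 5 with library totals and 4 by limma on log2(FPKM + 0.1) (median -0.073, 0.025 with library totals). The fallers were led by secreted chemokines: CCL2, which attracts monocytes, stood at 67.8, 77.9 and 72.4 CPM in the DMSO libraries and 30.0, 27.9 and 36.9 CPM in the GNA libraries and fell by 1.20, and CXCL5 fell by 0.84 log2 units. DKK1, a secreted Wnt inhibitor and Wnt target, fell by 0.89, and the Wnt receptor ligase RNF43 by 0.43 log2 units, among 6 of 30 Wnt pathway genes that were lower (2 with library totals, 3 without DMSO replicate 3). That share, 20%, was near the 16.9% of all genes. YAP targets went both ways (7 higher and 5 lower of 21), with ANKRD1 and CCN1 up (0.81 ± 0.052 and 0.52 ± 0.079) and F3 down (-0.65 ± 0.14 log2 units). Immediate early genes rose in 9 and fell in 4 of 24 cases (2 without GNA replicate 1), and MAFF and FOS changed by 1.09 ± 0.090 and -0.52 ± 0.069 log2 units.

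The largest single change after HSPA6 among genes above 5 CPM was BEX2, a small adaptor protein of the brain-expressed X-linked family, at 4.47, 6.09 and 6.17 CPM in the DMSO libraries and 69.3, 63.5 and 67.8 CPM in the GNA libraries, a rise of 3.57 ± 0.10 log2 units. Of 8 genes of the BEX and TCEAL families 2 rose and 4 fell, BEX3 and TCEAL3 by 0.40 and 0.65 log2 units. ULBP1, a stress ligand seen by natural killer cells, rose from 2.27, 1.34 and 1.84 to 7.11, 9.61 and 9.99 CPM, and RAB39B, a vesicle GTPase, from 0.963, 1.77 and 0.985 to 5.75, 6.90 and 6.01 CPM. FAM111B, a protease gene of replicating cells, had the largest fall of genes above 5 CPM, at 52.8, 55.2 and 58.4 CPM in the DMSO libraries and 18.3, 18.0 and 17.2 CPM in the GNA libraries (-1.64 ± 0.084 log2 units). Beside KIF20A and PLK1, the other steep falls were ERCC6L, SPC25 and NCAPH of mitosis (-1.34 ± 0.15, -1.21 ± 0.12 and -1.21 ± 0.079), the transcription factor gene ZBED2 (-1.30 ± 0.062), the myosin gene MYH15 (-1.34 ± 0.085) and the noncoding LNCAROD (-1.29 ± 0.095 log2 units). Some of the largest rises rested on uneven libraries. GET4, for inserting proteins into the ER membrane, stood at 2.68, 1.71 and 0.788 CPM in the DMSO libraries and 3.74, 14.4 and 11.6 CPM in the GNA libraries, and AKAP17A, at 20.5, 16.5 and 19.2 CPM in the DMSO libraries and 99.0, 10.6 and 103 CPM in the GNA libraries, overlapped between the groups, and its call was lost without GNA replicate 1 or 3. WASH9P, at 1.44, 1.65 and 1.97 to 6.54, 8.87 and 8.27 CPM, is 1 of many near-identical copies.

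The response differed between this line and the shNRF2 line for 1086 of the 14778 genes (7.35%) by the test of the difference itself, for 1439 without DMSO replicate 1 and 727 without GNA replicate 2, and for 695 and 635 by limma on log2(FPKM + 1) and log2(FPKM + 0.1). NFE2L2, the target of the hairpin, stood at 77.6 CPM with DMSO and 87.3 with GNA in shNC and at 50.3 and 46.0 in shNRF2 (means of 3 libraries). Among genes called in the shNC line 13.7% differed and among those not called 4.23%. Amino acid synthesis enzymes responded less in shNRF2: the difference was called in 6 of 19 genes, each of which rose here, and in 0 the other way (1 without DMSO replicate 1 or shNRF2 GNA replicate 1). Their median change was 0.73 here and 0.37 there. PSAT1 rose by 1.23 ± 0.054 here and 0.58 ± 0.053 in shNRF2 (difference -0.65 ± 0.076, edgeR adjusted p = 2.2e-06), and PCK2 by 2.11 ± 0.098 and 1.36 ± 0.089 (-0.74 ± 0.13 log2 units, edgeR adjusted p = 7.8e-04). NUPR1 differed by -0.42 ± 0.095, while DDIT3 differed by 0.13 ± 0.12 log2 units without a call (edgeR adjusted p = 0.61).

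Protein quality genes had higher changes with GNA in shNRF2, which in different lists was a larger rise, a smaller fall or a median of opposite sign. Over all genes the difference was called in 7.35%, either direction. For chaperonin genes the difference was called in 8 of 11 cases, all positive, and the median change was -0.0053 there against -0.27 here. That count was 4 with library totals, 3 without GNA replicate 2 or 3 or shNRF2 DMSO replicate 1 or 2, 4 or 5 without DMSO replicate 2 or 3 or any 1 shNRF2 GNA replicate, 3 by limma on FPKM and 4 with the replicate block. HSP90 genes and co-chaperones, with a median change of -0.15 here and 0.31 there, had a positive difference in 13 of 21 cases and a negative one in 2 (1 to 3 when single libraries were left out). For HSP70 genes the medians were 0.22 here and 0.60 there, and 10 of 16 differences were called, all positive. Proteasome genes, of which 6 rose and 10 fell here (13 and 4 with library totals), had a positive difference in 20 of 45 cases (13 by limma on log2(FPKM + 0.1)), with medians of -0.039 here and 0.20 there. The proteasome shares here, 13.3% higher and 22.2% lower, were near the 15.8% and 16.9% of all genes. HMOX1 rose by 1.81 ± 0.073 here and 3.00 ± 0.084 there (difference 1.19 ± 0.11 log2 units, edgeR adjusted p = 6.0e-08). MYH14 rose by 1.34 ± 0.096 here and 3.59 ± 0.13 there, and CCN2, a YAP target, rose here (0.42 ± 0.094) but changed by -1.08 ± 0.096 log2 units there. PLK1 fell further in shNRF2 (difference -0.36 ± 0.11 log2 units, edgeR adjusted p = 0.044), a call that, with single libraries left out, held only without DMSO replicate 3, GNA replicate 1 or shNRF2 GNA replicate 1.

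**Figure D5:**
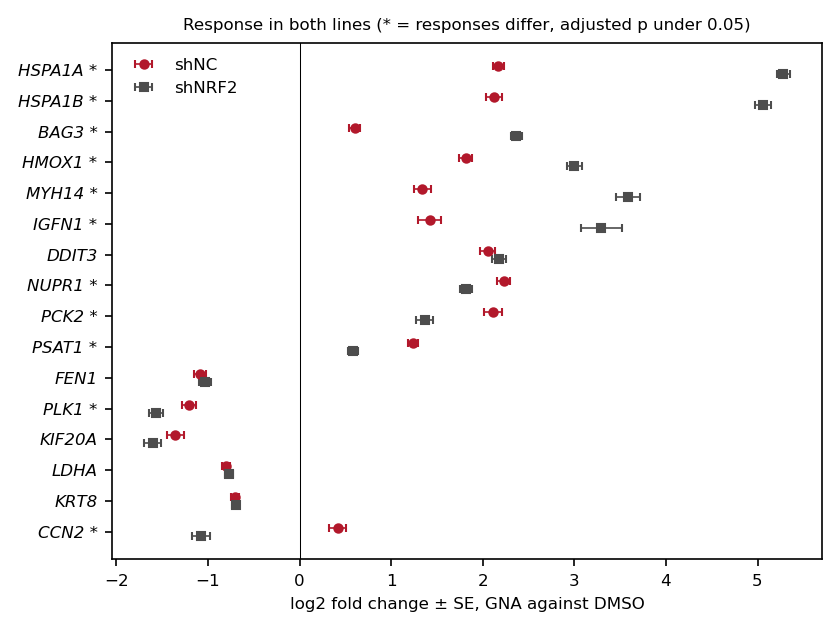
Log2 fold change ± SE of GNA against DMSO for 16 genes in shNC cells (red circles) and shNRF2 cells (grey squares), with an asterisk where the responses differ by the test of the difference. HSPA1A, HSPA1B, BAG3, HMOX1, MYH14 and IGFN1 (the last not by limma on FPKM) rose more in shNRF2, NUPR1, PCK2 and PSAT1 rose more in shNC, and CCN2 moved in opposite directions.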

How the data were processed

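The authors deposited 1 table of raw read counts per gene for 12 total RNA libraries and, beside them, FPKM values. Per the submitters' processing notes the genome build was GRCh38 and DESeq2 was used; no aligner, counter, annotation or strand setting is given in the sources used here. FPKM in the deposited table use 1 length per gene and the library total, as the values show. Columns were matched to samples by name.

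Genes were kept with edgeR's filterByExpr on the 6 shNC libraries (minimum count 10, minimum total 15), scaled by TMM and tested with edgeR 4.0.16 (quasi-likelihood test, R 4.3.3) in 1 fit of all 12 libraries with 1 coefficient for each group, leaving 8 residual degrees of freedom. P-values were adjusted by Benjamini-Hochberg over 14778 genes, and 0.05 was the threshold. The response difference is shNRF2 minus shNC in the same fit. The fit was also run on simulated counts with known changes, and the outcome is not reported here. Alternatives used DESeq2 1.42.0, limma 3.58.1 on log2(FPKM + 1) and log2(FPKM + 0.1), where log2 values were computed from the FPKM the authors deposited, other scalings and filters, a replicate block and each library left out.

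Members, lists and motifs were chosen with earlier results of these data known. Named genes are fixed regulators, the 12 largest rises and falls, up to 4 members per list and direction with at least 5 CPM in the higher group, uncalled key members, and up to 6 genes each way for the response difference. Genes named only for a promoter match are marked as such, and some genes the rule names are not reported here. A 3 against 3 permutation test cannot go below p = 0.1, so single values were tested in the fit across genes. Promoter sequences come from RefSeq, GRCh38.p14.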

Additional observations from a re-analysis of the deposited data

Results flagged for a closer look

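The 12 genes below responded differently to GNA in the 2 lines by the test of the difference (shNRF2 minus shNC, edgeR, adjusted over all genes). They are the largest differences each way among genes called in shNC. The inducible HSP70 genes HSPA1A, HSPA6 and HSPA1B responded more in shNRF2, by 3.11, 2.99 and 2.94 log2 units, and their co-chaperone BAG3 by 1.77. The myosin gene MYH14 and the muscle-type gene IGFN1 differed by 2.25 and 1.88 log2 units. HSPA6 had 0.0657 to 0.275 CPM in the shNC DMSO libraries, so its response rests on few counts there.

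Smaller responses in shNRF2 were led by genes with uneven libraries or overlapping models. AKAP17A differed by -3.56, GET4 by -2.55, C12orf75 by -2.30 and NDUFAF8 by -2.07 log2 units. C12orf75 stood at 39.1, 41.4 and 32.4 CPM in the DMSO libraries and 49.0, 132 and 104 CPM in the GNA libraries, and NDUFAF8 at 106, 35.6 and 31.9 CPM in the DMSO libraries and 228, 228 and 222 CPM in the GNA libraries. In C12orf75 GNA replicate 1 was the low library of its group, and in NDUFAF8 DMSO replicate 1 was the high one of its group. CCN2, a YAP target, differed by -1.49 and the pseudogene WASH9P, 1 of many near-identical copies, by -1.43 log2 units. The part of counting between overlapping or copied genes in these differences was not tested.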

How the results depend on the processing

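Over the alternatives tried, no gene called in the reported test was called in the other direction. Library totals gave 3524 genes higher and 1555 lower, and limma gave 1455 lower with 695 response differences on log2(FPKM + 1) and 1435 lower with 635 on log2(FPKM + 0.1), against 2342 higher, 2503 lower and 1086 differences. The cause was not tested for limma; library totals drop the TMM factors. All other settings stayed within 1.5 times the reported counts for higher and lower genes. Leaving out 1 library gave 1816 to 2307 higher and 2046 to 2519 lower genes, and 727 to 1439 response differences. The changes of 523 named genes gave 8367 values across alternatives, of which 7794 kept direction and call, 573 lost the call and 0 reversed. The response difference of IGFN1 was -0.22 on log2(FPKM + 1), opposite in sign and not called; the cause was not tested.

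The replicate numbers do not pair the libraries: same-numbered DMSO and GNA libraries deviated from their group means with correlations of -0.022, -0.012 and 0.0076. With the replicate block 2284 genes were higher, 2440 lower and 947 responses differed. At 13599974 to 17192671 counts per library, genes near the count minimum were tested with little power, and a missed call there does not show that a gene did not change.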
